A study of Mus musculus with 18 samples.

Results

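Lamin A added back to hearts labelled as Lmna knockdown was described across all genes by setting 3 RNA-seq libraries of hearts labelled Lmna shRNA plus lamin A against 3 libraries of hearts labelled Lmna shRNA alone. The members were chosen by their sample labels, and they make 6 of the 18 libraries of the series. All libraries came from the apex of the heart of mice with the genotype WT. The hearts with lamin A carried the treatment label of the shRNA together with lamin A, and the hearts they were compared with carried the shRNA label only. Both groups belong to a batch that the labels call LA, which also holds 3 control libraries, and the labels do not give what the controls received, the age of the mice, the time after treatment or the dose. The series also holds a batch called LC with 3 controls, 3 hearts with the shRNA label and 3 hearts with the shRNA and lamin C. Delivery was by rAAV9, a viral vector that reaches heart muscle, and the study's stated aim was to raise lamin A or lamin C in a dilated cardiomyopathy made by Lmna knockdown. The promoter of the vectors, and so the cells that express them, is not stated in the labels, and neither is whether the libraries of a group came from separate animals. The p-values below therefore measure the spread between these samples.

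Lamins A and C are filament proteins of the nuclear lamina, the meshwork under the inner nuclear membrane, and both are spliced from the Lmna gene. Loss of them in heart muscle is a known cause of dilated cardiomyopathy, in which the ventricle widens, contracts weakly and conducts poorly. A failing ventricle typically switches from burning fatty acids towards glucose, re-expresses fetal genes and lays down matrix.

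Library totals in batch LA lay between 32003727 and 40168181 counts, so counting error was small for all but weakly expressed genes. Levels are given as CPM, counts scaled to a common library total after TMM scaling, which sets libraries to a common level of the bulk of genes. Differences are log2 fold changes with their standard error, lamin A relative to shRNA unless another pair is named. A gene is called when the Benjamini-Hochberg adjusted p of edgeR's quasi-likelihood test over all 17876 genes tested was under 0.05. Libraries of 1 group are given in the order 1, 2, 3, which carries no meaning. The share of counts from mitochondrially encoded genes was 26.8, 27.0 and 26.4% in the controls, 14.1, 15.1 and 14.1% in the hearts labelled Lmna shRNA, and 20.3, 22.6 and 21.1% with lamin A. The difference of 6.91 percentage points had an exact two-sided permutation p of 0.1, the smallest that 3 against 3 allows. This share moves the scale of all other genes, and its part in the results was not tested apart from the alternative scalings given beside them.

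Lmna itself was read first. Lmna (ENSMUSG00000028063), at chr3:88480147-88509956 in mm10, had 120.0, 119.6 and 112 CPM in the controls, 127, 122 and 130.3 CPM in the hearts labelled Lmna shRNA and 556, 537 and 501 CPM in the hearts labelled lamin A. All 3 lamin A libraries stood far above the other 6, and the control and shRNA libraries lay side by side. Lmna was 2.07 ± 0.08 higher with lamin A (edgeR adjusted p = 1.79e-11), whereas shRNA against control gave 0.11 ± 0.08 (edgeR adjusted p = 0.258). The count of Lmna therefore did not mark the hearts labelled Lmna shRNA as knockdown, and each direction drawn from that label below rests on the label. A gene count does not separate lamin A from lamin C transcripts or the mouse gene from a vector transcript that shares its sequence.

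Most genes of the nuclear envelope were not called. Of 20 tested genes of the nuclear lamina and inner nuclear membrane, a list that holds Lmna, 2 were higher, Lmna itself and Lmnb2, and 1 was lower, against 16.1% higher and 13.7% lower over all genes. Their median was 0.03, turning to -0.17 with library totals alone as the scale. Lmnb2, a B-type lamin, had 10.004, 12.4 and 11.6 CPM with shRNA and 15.01, 13.4 and 14.3 CPM with lamin A, and rose by 0.33 ± 0.10 (edgeR adjusted p = 0.0137), a call lost without shRNA library 1 or lamin A library 1 (edgeR adjusted p = 0.0821 and 0.0562). Tmem43, an inner membrane protein tied to inherited arrhythmogenic cardiomyopathy, fell from 71.7, 68.8 and 72.1 CPM to 47.7, 46.2 and 53.8 CPM, which is -0.52 ± 0.07 (edgeR adjusted p = 1.15e-05) and still above its control level of 30.2, 29.3 and 27.9 CPM. Lmnb1 was at -0.097 ± 0.14, Emd (emerin) at -0.0081 ± 0.09 and Zmpste24, the protease that matures prelamin A, at -0.048 ± 0.06, none of them called.

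Across the transcriptome lamin A moved many genes by small amounts. Of the 17876 genes tested, 5330 (29.8%) were called, 2881 (16.1%) higher and 2449 (13.7%) lower, and 7059 had an unadjusted p under 0.05. The median fold was 1.33 among the higher calls and 1.40 among the lower ones. At least 2-fold changes were found for 268 genes higher and 553 genes lower, and at least 8-fold ones for 7 and 46 genes. The split leaned on the scale: 54.1% of calls were higher with TMM, and 17.1% of 7485 calls were higher with library totals alone, a scale that moves the median of all genes by -0.21 on the log2 scale. No gene called in both was called in opposite directions. The 3 and 3 libraries did not overlap for 8076 genes (45.2%). Of 14618 protein-coding genes 2608 were higher and 2260 lower, and of 655 lincRNAs 65 were higher and 44 lower. In bulk tissue, fewer cells of a type and less RNA per cell cannot be told apart.

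The direction of these changes can be set against genes chosen in batch LC, which shares no library with the lamin A comparison. There the hearts labelled Lmna shRNA differed from their controls in 11247 genes (62.9%), 5948 (33.3%) higher and 5299 (29.6%) lower. Of the 5948 genes that were higher in batch LC, lamin A lowered 2137 (35.9%) and raised 74 (1.24%), and 3737 were not called. Of the 5299 that were lower, lamin A raised 2573 (48.6%), lowered 29 (0.547%) and left 2697 uncalled. These sets hold 87.3% of all genes that fell with lamin A and 89.3% of all that rose. Among the 6629 genes not called in batch LC, 234 were higher and 283 lower with lamin A. The counts of 74 and 29 lean on single libraries: the first was 44 without shRNA library 1, 45 without lamin A library 2 and 48 without lamin A library 3, and the second was 16 without shRNA library 1 and 18 without lamin A library 3.

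**Figure D1:**
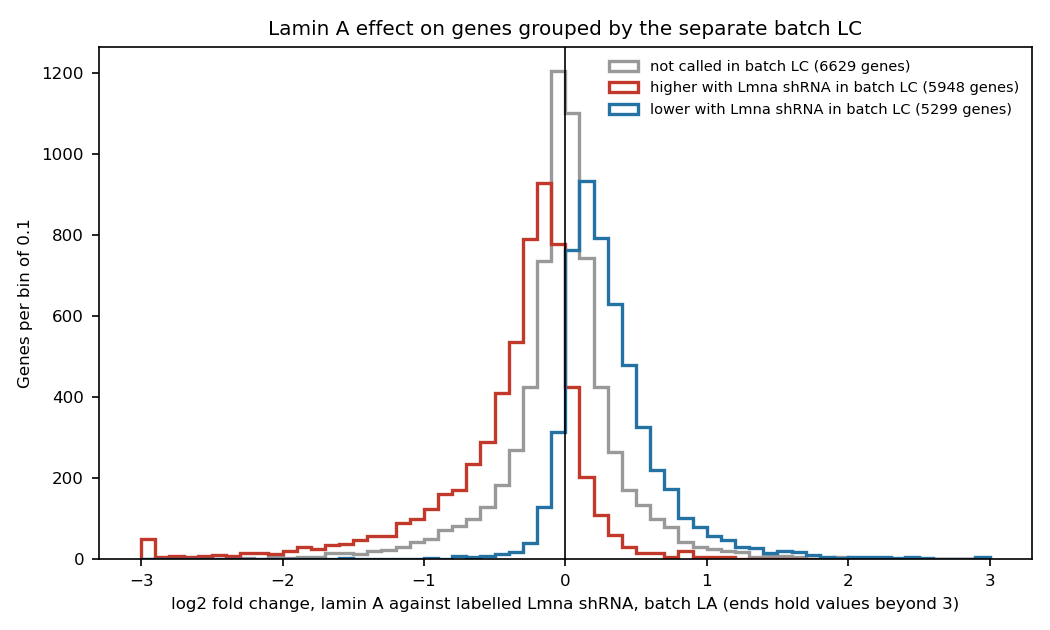
Genes are grouped by their call in batch LC (hearts labelled Lmna shRNA against controls) and plotted by their log2 fold change with lamin A in batch LA, lamin A relative to shRNA, as genes per bin of 0.1. The 5948 genes higher in batch LC lie mostly to the left of 0, the 5299 lower genes mostly to the right, and the 6629 uncalled genes around 0.

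The distance covered was partial on average. The 2894 genes raised at least 2-fold in batch LC stood, in mean log2 CPM, 1.76, 1.80 and 1.81 above the batch LA controls in the hearts labelled Lmna shRNA. With lamin A they stood 1.22, 1.15 and 1.27 above them. The 1479 genes lowered at least 2-fold stood at -1.39, -1.32 and -1.37 with shRNA and at -0.72, -0.68 and -0.84 with lamin A. All 3 lamin A libraries thus lay between the controls and all 3 shRNA libraries for both sets. Against the batch LA controls, 10975 genes (61.4%) were called with the shRNA label and 8266 (46.2%) with lamin A, comparisons that share the controls.

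**Figure D2:**
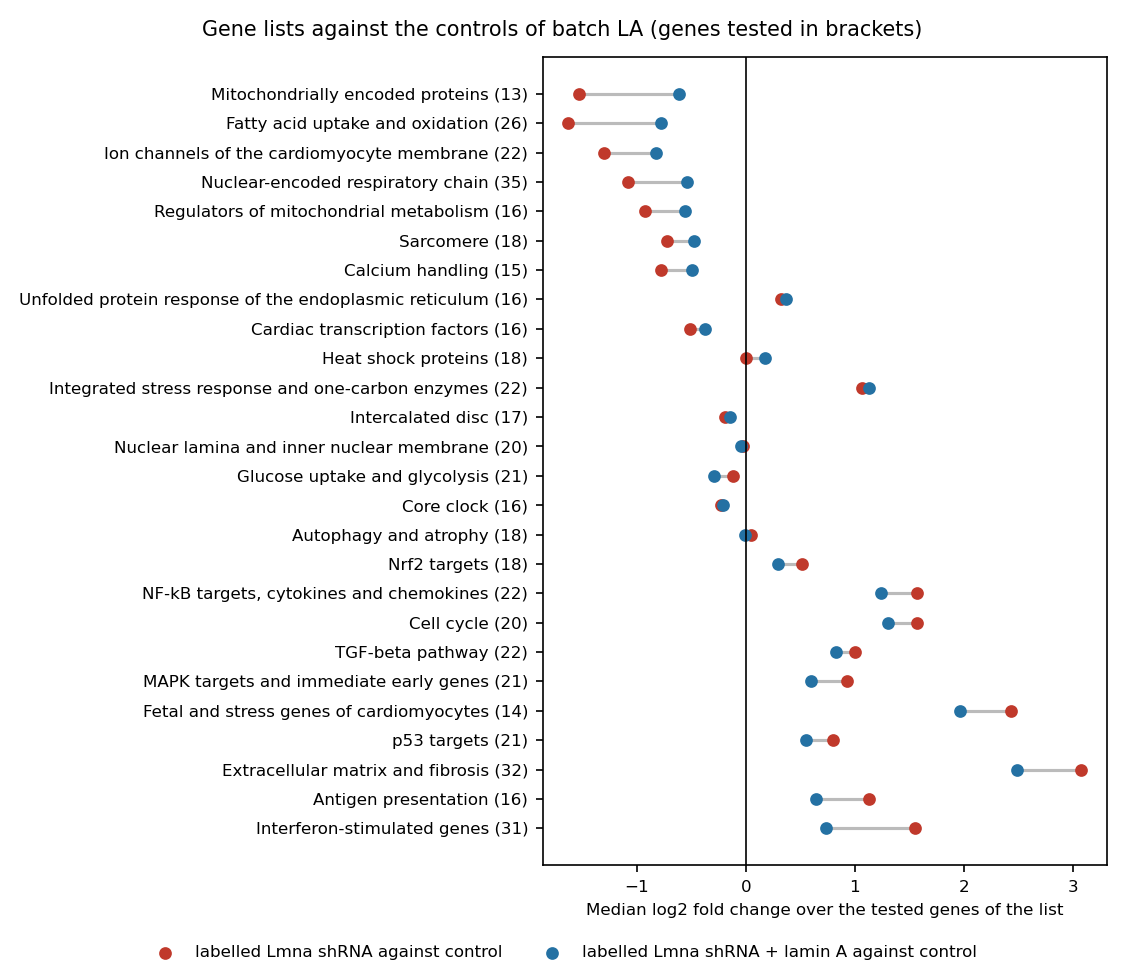
Each row is a gene list, and the points are the median log2 fold change of its tested genes against the batch LA controls for the shRNA label and for lamin A (3 libraries a group, shared controls). Lists of mitochondrial and muscle genes lie below 0 and matrix, fetal and interferon lists above it, with the lamin A point nearer 0 in each of these.

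The 15 largest rises included Lmna itself, several genes that had been low with the shRNA label, and a few that went past the controls. Scn4b, a beta subunit of the cardiac sodium channel at chr9:45138395-45154152, had 16.6, 18.1 and 31.2 CPM in the controls, 0.755, 1.76 and 1.46 CPM with shRNA and 11.9, 14.3 and 7.22 CPM with lamin A. The lamin A libraries overlapped neither group, although no overlap with shRNA was part of how these genes were chosen. The rise was 3.06 ± 0.36 (edgeR adjusted p = 3.79e-06). Ces1d, a carboxylesterase that hydrolyses lipid esters, had 111, 124 and 124 CPM in the controls, 3.40, 6.07 and 5.49 CPM with shRNA and 34.5, 44.2 and 29.3 CPM with lamin A, a rise of 2.85 ± 0.31 (edgeR adjusted p = 1.94e-06). Ucp3, a mitochondrial carrier of muscle that responds to fatty acids, went from 12.4, 17.7 and 17.3 CPM to 81.7, 87.02 and 39.3 CPM beside 119.7, 115 and 110.2 CPM in the controls, a rise of 2.13 ± 0.23 (edgeR adjusted p = 1.89e-06), with lamin A library 3 the lowest of its group. Mylk4, related to the kinases of myosin light chains, rose by 1.84 ± 0.23 from 14.1, 16.4 and 17.9 CPM to 69.7, 61.6 and 42.1 CPM and stayed far under its control level of 244, 233 and 223 CPM. Slc36a2, an amino acid transporter, rose by 1.89 ± 0.21 and Smco1, a muscle membrane protein, by 1.74 ± 0.25. Itgb6, an integrin beta chain, had 2.76, 6.95 and 6.31 CPM with shRNA, 21.9, 19.2 and 16.8 CPM with lamin A and 20.9, 21.8 and 23.7 CPM in the controls, and Aqp4, a water channel, had 2.595, 3.36 and 2.90, 9.78, 10.4 and 7.73 and 11.4, 14.2 and 10.3 CPM. Both reached values next to or inside the control range, with rises of 1.85 ± 0.26 and 1.65 ± 0.26.

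The largest of the 15 rises went past the controls. AI593442, a protein-coding gene known by its clone name and located at chr9:52673042-52679780, had 2.67, 2.78 and 3.61 CPM in the controls, 0.920, 1.31 and 1.34 CPM with shRNA and 11.5, 9.41 and 11.5 CPM with lamin A. It rose by 3.18 ± 0.19 over shRNA (edgeR adjusted p = 6.41e-09) and stood 1.84 ± 0.18 over the controls (edgeR adjusted p = 9.68e-08). Pacsin1, a membrane-bending protein best known from neurons, had 1.43, 1.34 and 1.15, 0.920, 1.17 and 1.04 and 5.25, 5.40 and 6.33 CPM in the same order, so that only the lamin A libraries stood apart, by 2.44 ± 0.32 over shRNA. Angptl4, a secreted inhibitor of lipoprotein lipase, had 29.5, 43.99 and 35.6 CPM in the controls, 20.8, 33.4 and 30.1 CPM with shRNA and 94.2, 94.5 and 79.7 CPM with lamin A. Its rise of 1.67 ± 0.46 (edgeR adjusted p = 0.00947) was not called by DESeq2. The short mitochondrial genes mt-Atp8, mt-Nd4l and mt-Nd3 were also among the 15 largest rises, but reads of mt-Atp8 and mt-Nd4l overlap their neighbours on the mitochondrial genome. For mt-Atp8, the lamin A libraries had 42.02, 30.6 and 292 CPM, with library 3 far above the rest, and the rise was 3.02 ± 0.93 with library 3 and 1.28 (edgeR adjusted p = 0.296) without it. mt-Atp8 also lost its call without shRNA library 2 or 3 (edgeR adjusted p = 0.0774 and 0.051), and mt-Nd3, at 1.655 ± 0.57, without any library but lamin A library 2 (0.0714 to 0.0937).

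The largest falls under the same filters came from genes that were low in the control hearts. Cnn1, calponin of smooth muscle, at chr9:22099216-22109630, had 2.67, 2.19 and 3.17 CPM in the controls, 64.3, 44.99 and 44.4 CPM with shRNA and 3.29, 2.70 and 8.14 CPM with lamin A. It fell by 10.7-fold, which is -3.42 ± 0.27 (edgeR adjusted p = 1.09e-07), and lamin A libraries 1 and 2 lay at the level of the controls while library 3 stood higher. Star, which brings cholesterol to the inner mitochondrial membrane for steroid synthesis, went from 47.3, 39.7 and 38.1 CPM to 6.67, 5.10 and 6.14 CPM, beside 1.34, 0.784 and 1.33 CPM in the controls, a change of -2.80 ± 0.15. Serpinb1a, an inhibitor of neutrophil proteases, went from 107, 77.5 and 90.3 CPM to 8.31, 9.19 and 11.3 CPM, beside 3.79, 4.67 and 2.99 CPM in the controls, -3.25 ± 0.16, and Serpinb9b, of the same clade of inhibitors, changed by -2.598 ± 0.22. Cd24a, a surface glycoprotein, went from 67.7, 56.2 and 54.7 CPM to 8.37, 7.38 and 12.01 CPM, beside 1.56, 1.63 and 0.974 CPM in the controls, -2.68 ± 0.17. Sema3e, a guidance cue for axons and vessels, went from 6.32, 4.81 and 4.85 CPM to 0.462, 0.481 and 0.538 CPM, -3.42 ± 0.27. That the shRNA and lamin A libraries did not overlap was part of how these genes were chosen. The lamin A libraries of Star, Serpinb1a and Cd24a stood above all 3 controls.

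The other large falls included structural genes. Col22a1 and Col9a2, collagens of tissue junctions and cartilage, changed by -2.065 ± 0.25 and -2.04 ± 0.25. Drp2, related to dystrophin, changed by -2.27 ± 0.23. Tnnt3, the troponin T of fast skeletal muscle, had 5.64, 5.09 and 5.05 CPM with shRNA, 1.85, 0.615 and 1.25 CPM with lamin A and 0.891, 0.653 and 0.613 CPM in the controls, and changed by -2.095 ± 0.28. Shisa3 changed by -2.24 ± 0.17, Ildr2 by -2.15 ± 0.24 and Tnfrsf23, a decoy receptor of the TNF family, by -2.10 ± 0.14.

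**Figure D3:**
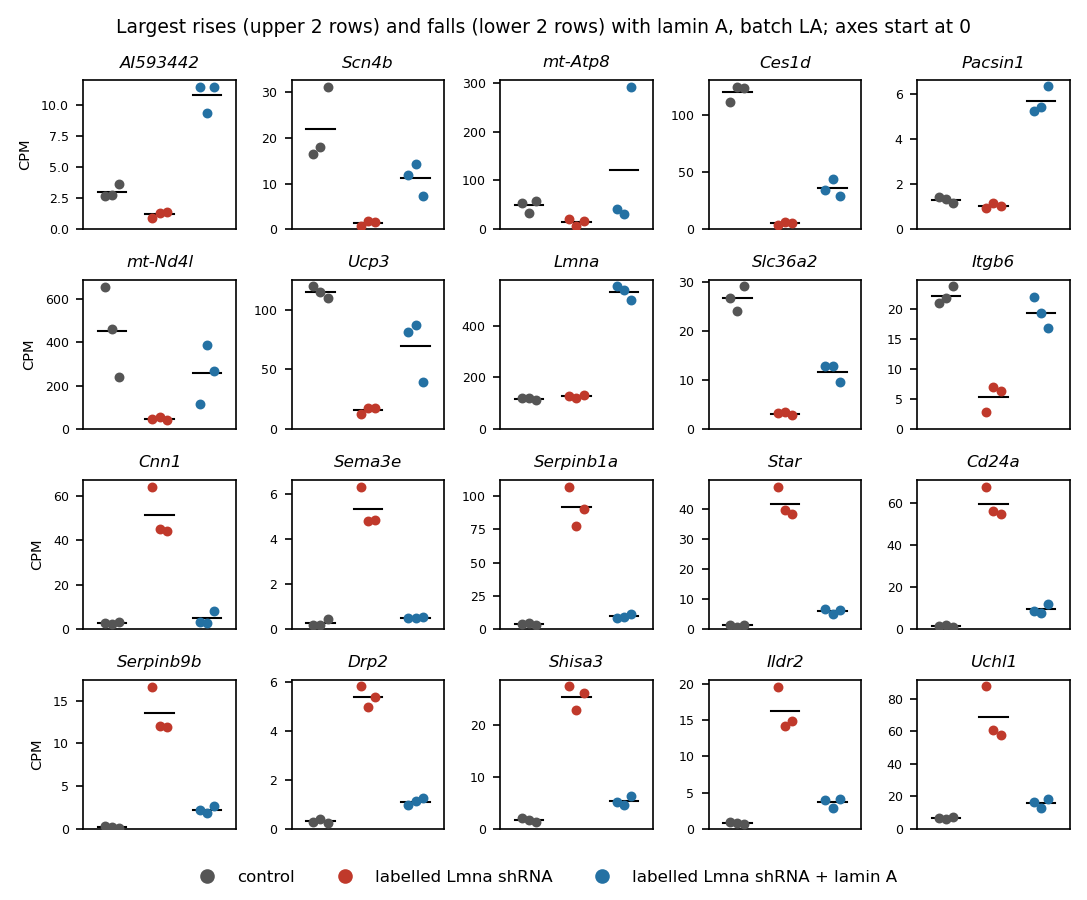
CPM in the 9 batch LA libraries for 10 of the largest rises and 10 of the largest falls under the filters in the text. Rises and falls are with lamin A against shRNA. Points are libraries and lines group means, and each axis starts at 0. The rising genes other than AI593442, Pacsin1, mt-Atp8 and Lmna had lamin A means between shRNA and control. The falling genes had lamin A means below the shRNA means, and for Star, Serpinb1a and Cd24a all lamin A libraries stood above all controls.

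All 35 tested nuclear genes of the respiratory chain were higher with lamin A (median 0.53, against -0.0029 over all genes), and all 35 had been lower with shRNA than in the controls (median -1.09) and stayed lower with lamin A (median -0.54). With library totals alone as the scale 33 of the 35 were called higher, with a median of 0.33. Cardiomyocyte markers moved beside them: 10 of 12 were higher with lamin A and none lower (median 0.66), their summed level was 40340 to 41810 CPM with shRNA and 58750 to 61920 CPM with lamin A, and their part in this and the following lists of mitochondria, contraction, calcium handling and ion channels was not tested. Ndufa10, a complex I subunit, had 284, 292 and 277 CPM with shRNA and 437, 466 and 448 CPM with lamin A, beside 677, 683 and 693 CPM in the controls, and rose by 0.66 ± 0.06 (edgeR adjusted p = 2.07e-07). Cox6a2, the muscle form of a cytochrome oxidase subunit, rose by 0.69 ± 0.06, Ndufv1 of complex I by 0.615 ± 0.05 and Sdhb of complex II by 0.72 ± 0.07. The 3 groups did not overlap for any of these 4 genes, which were chosen as called members with the smallest p. The lamin A and shRNA libraries did not overlap for any of the 35, against 45.2% of all genes.

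Fatty acid uptake and oxidation moved the same way, with 25 of 26 genes higher, none lower and a median of 0.78 (24 higher and a median of 0.58 with library totals alone). Acadm, the medium-chain acyl-CoA dehydrogenase, had 1158, 1218 and 1301 CPM in the controls, 363, 372 and 360.2 CPM with shRNA and 633, 677 and 602 CPM with lamin A. Its rise was 0.80 ± 0.06 (edgeR adjusted p = 8.96e-08). Acadm was chosen for its small p, and no library of a group overlapped another group. Acsl1, which activates fatty acids with coenzyme A, rose by 0.94 ± 0.09, Acadvl, the very-long-chain dehydrogenase, by 0.825 ± 0.08, and Decr1, needed for unsaturated fatty acids, by 0.77 ± 0.07. Cpt1a, the liver form of the carnitine transferase, was the member not called, at 0.054 ± 0.08. Among further members chosen after their values were seen, Cd36, the uptake receptor, rose by 0.49 ± 0.09 and Plin5, which ties lipid droplets to mitochondria, by 1.23 ± 0.14. Cpt1b, the muscle carnitine transferase, was at 0.51 ± 0.16, a call lost without shRNA library 1 or 3 or lamin A library 1 (edgeR adjusted p = 0.0642, 0.0626 and 0.12).

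Of 13 protein genes encoded by the mitochondrial genome, 12 were higher (median 0.82). mt-Co1, the catalytic subunit of cytochrome oxidase, had 111980.0, 113160.0 and 112710.0 CPM in the controls, 46788, 48446 and 46536 CPM with shRNA and 74086, 86016 and 79533 CPM with lamin A, a rise of 0.76 ± 0.07 (edgeR adjusted p = 3.13e-07). mt-Cytb rose by 0.72 ± 0.07, mt-Nd4 by 0.75 ± 0.07 and mt-Nd5 by 0.81 ± 0.08. limma on log2(FPKM + 1) with no filter on low values called 4 of the 13, and none of the 4 genes just named was among them (limma adjusted p = 0.278 to 0.839). mt-Atp6 was the member not called, at 0.17 ± 0.28.

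Transcription factors and coactivators of mitochondrial metabolism were higher for 10 of 16 genes and lower for none, and 6 were higher with library totals alone. Perm1, a muscle coactivator of oxidative genes, had 121, 110.4 and 118 CPM with shRNA and 176, 187 and 179.6 CPM with lamin A, and rose by 0.64 ± 0.08 (edgeR adjusted p = 4.75e-06). Rxrg, a retinoid X receptor, rose by 1.05 ± 0.14, Ppard, a fatty acid sensor, by 0.41 ± 0.07, and Tfam, which packages mitochondrial DNA, by 0.38 ± 0.07. Ppargc1a, the best known coactivator of this programme, was at 0.063 ± 0.11 and Ppara at 0.17 ± 0.19, neither called.

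Glucose uptake and glycolysis moved in both directions, with 7 of 21 genes higher and 6 lower (6 and 10 with library totals alone). Over all genes 16.1% were higher and 13.7% lower. Slc2a4, the insulin-responsive transporter of muscle, rose by 0.87 ± 0.10 from 104, 114 and 116 CPM to 204, 206 and 203 CPM. Pfkm, the muscle phosphofructokinase, rose by 0.76 ± 0.07 and Eno3, the muscle enolase, by 0.67 ± 0.08. Pgk1, phosphoglycerate kinase, and Pgam1, the non-muscle phosphoglycerate mutase, fell, at -0.37 ± 0.06 and -0.48 ± 0.08. Pfkp, the platelet phosphofructokinase, named after its values were seen, was called lower at -0.45 ± 0.10.

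Of 18 sarcomere genes, which form the contractile unit of muscle, 11 were higher and none lower (median 0.30), and with library totals alone 7 were higher and 3 lower. Of the 18, 6 are also cardiomyocyte markers. Myl2, the ventricular regulatory light chain, had 7209, 7472 and 6898 CPM in the controls, 2612, 2817 and 2652 CPM with shRNA and 4061, 4377 and 4126 CPM with lamin A, a rise of 0.64 ± 0.06 (edgeR adjusted p = 4.05e-07). Tnni3, cardiac troponin I, rose by 0.845 ± 0.08 and Myl3, the essential light chain, by 0.68 ± 0.07. Tnnt2, cardiac troponin T, was at -0.12 ± 0.08 and Mybpc3, myosin binding protein C, at 0.025 ± 0.07, neither called. Myh6, the fast adult myosin heavy chain, named after its values were seen, had 33804, 32678 and 34579, 11494, 11960.0 and 11809 and 21864, 21002 and 18977 CPM in controls, shRNA and lamin A, and rose by 0.81 ± 0.12.

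Calcium handling had 10 of 15 genes higher and 1 lower (5 and 3 with library totals alone). Atp2a2, the SERCA pump that refills the sarcoplasmic reticulum, had 14841, 14711 and 15466 CPM in the controls, 4652, 5021 and 4919.8 CPM with shRNA and 8438, 9417 and 8152 CPM with lamin A, a rise of 0.83 ± 0.10 (edgeR adjusted p = 4.04e-06). Pln, the inhibitor of that pump, rose by 0.695 ± 0.07, and Hrc, a calcium buffer of the reticulum, by 1.375 ± 0.14. Atp2b1, a calcium pump of the plasma membrane, fell, at -0.25 ± 0.06. Ion channels of the cardiomyocyte membrane had 17 of 22 genes higher and 1 lower, with a median of 0.63. Kcnj11, the pore of the ATP-sensitive potassium channel, rose by 0.65 ± 0.06 from 56.01, 52.8 and 55.8 CPM to 87.2, 87.8 and 83.9 CPM. Kcnip2, which sets the transient outward current and was named after its values were seen, had 238, 241 and 226 CPM in the controls, 28.3, 40.97 and 34.5 CPM with shRNA and 74.7, 77.7 and 71.9 CPM with lamin A.

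The intercalated disc, which joins cardiomyocytes end to end, had 4 of 17 genes higher and 3 lower, near the shares over all genes (16.1% and 13.7%), with a median of 0.03 that turned to -0.17 with library totals alone. Dsc2, a desmosomal cadherin, rose by 0.51 ± 0.09, Gjc1, a connexin, by 0.35 ± 0.08 and Ctnna3, an alpha catenin, by 0.28 ± 0.08, the last not called without lamin A library 3 (edgeR adjusted p = 0.066). Des, the filament protein desmin, fell from 4105, 3245 and 3192 CPM to 2264, 2192 and 2517 CPM, -0.60 ± 0.09, and Dsp, desmoplakin, changed by -0.30 ± 0.08, called lower. Gja1, the main ventricular connexin, was at 0.26 ± 0.12 and not called, although its lamin A libraries were all above the shRNA ones and it was called higher with only batch LA in the fit. Among 16 cardiac transcription factors 7 were higher and 1 lower, with a median of 0.11 that turned to -0.09 with library totals alone. Hopx rose by 0.90 ± 0.10, Irx3, which patterns conduction, by 0.61 ± 0.10 and Srf by 0.37 ± 0.06, and Tbx20 fell, at -0.58 ± 0.09.

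**Figure D4:**
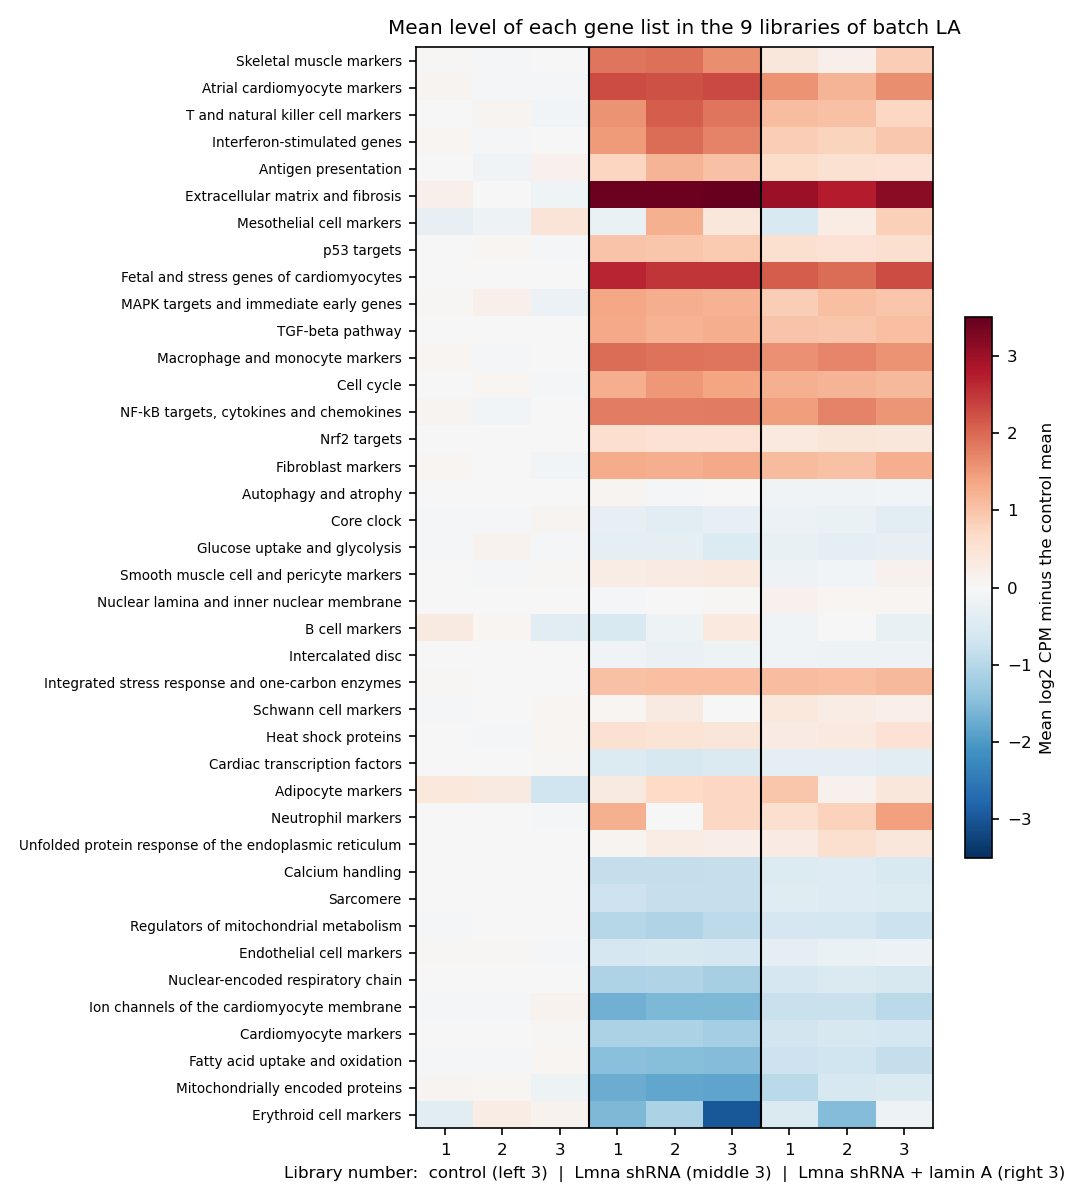
Mean log2 CPM of each gene list in the 9 batch LA libraries, less the control mean (red higher, blue lower; rows ordered by the lamin A difference). The lamin A libraries are paler than the shRNA libraries in the matrix, interferon and atrial rows at the top and in the mitochondrial, channel and cardiomyocyte rows at the bottom.

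Fetal and stress genes of cardiomyocytes stayed high for the most part. Of 14 genes 12 had been higher with shRNA than in the controls, and 12 were also higher than the controls with lamin A. Between the lamin A and shRNA libraries 5 were lower and 2 higher, against 13.7% and 16.1% over all genes, with a median of -0.22. Uchl1, a ubiquitin hydrolase, had 6.37, 6.24 and 7.18 CPM in the controls, 87.7, 60.7 and 58.01 CPM with shRNA and 16.3, 12.6 and 18.3 CPM with lamin A, a change of -2.13 ± 0.18 (edgeR adjusted p = 2.07e-07). Sprr1a changed by -1.57 ± 0.24 and Tubb3, a tubulin of neurons and fetal heart, by -0.84 ± 0.18. Acta1, skeletal actin and a classic fetal gene of the heart, went the other way, from 603, 582 and 492 CPM to 993, 909 and 1121 CPM beside 184, 248 and 299 CPM in the controls, a rise of 0.85 ± 0.29 (edgeR adjusted p = 0.0305). The call of Acta1 was lost without any single library but lamin A library 2 (edgeR adjusted p = 0.0571 to 0.105). Myh7b rose by 0.70 ± 0.13. Nppa, atrial natriuretic peptide, named after its values were seen, had 258, 287 and 208 CPM in the controls, 10058, 9344 and 9948 CPM with shRNA and 3916, 2462 and 6251 CPM with lamin A, a fall, at -1.22 ± 0.34, with a wide spread among the lamin A libraries and no call without lamin A library 2 (-0.94, edgeR adjusted p = 0.0608). Nppb, B-type natriuretic peptide, was at -0.44 ± 0.27 and Myh7, the slow myosin heavy chain, at -0.85 ± 0.32, neither called although their 3 and 3 libraries did not overlap. Both were called lower with only batch LA in the fit. Myh7 was near the threshold (edgeR adjusted p = 0.0517), and was also called lower with library totals alone, upper quartile factors, a filter of 1 CPM in 3 libraries and without shRNA library 2 (edgeR adjusted p = 0.0152, 0.0444, 0.0492 and 0.0467).

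Of 32 matrix genes 18 were lower with lamin A and 14 were not called. All 32 had been higher with shRNA (median 3.08 over the controls) and all 32 were still higher with lamin A (median 2.49). Against shRNA the median was -0.46, and 11 genes were lower without lamin A library 2. Loxl3, a collagen crosslinking enzyme, had 7.67, 7.81 and 8.26 CPM in the controls, 94.8, 79.3 and 89.1 CPM with shRNA and 35.01, 30.3 and 51.2 CPM with lamin A, a change of -1.17 ± 0.14 (edgeR adjusted p = 4.52e-06). Col12a1, a fibril-associated collagen, changed by -1.475 ± 0.23, Bgn, the proteoglycan biglycan, by -0.645 ± 0.12 and Mmp2, a gelatinase, by -0.64 ± 0.12. Postn, periostin of activated fibroblasts, named after its values were seen, had 67.9, 68.6 and 65.1 CPM in the controls, 2998, 2718 and 2645 CPM with shRNA and 1506, 1179.9 and 1742 CPM with lamin A, called lower at -0.92 ± 0.20. The main fibrillar collagens were not called, Col1a1 at -0.43 ± 0.18 and Col3a1 at -0.097 ± 0.18. Tnc, tenascin C of injured tissue, had 51.4, 95.2 and 89.1 CPM with shRNA and 148, 136 and 137 CPM with lamin A, and Timp1, a protease inhibitor, had 75.01, 87.2 and 92.8 and 98.9, 111 and 126 CPM. Neither was called, at 0.84 ± 0.32 and 0.40 ± 0.17, although the lamin A libraries of both were all above the shRNA ones. With only the 9 libraries of batch LA in the fit, Tnc and Timp1 were called higher and Col1a1 lower.

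Of 22 genes of the TGF-beta pathway 10 were lower and 1 higher. Ltbp3, which holds latent TGF-beta in the matrix, changed by -0.59 ± 0.08, and the ligands Tgfb2 and Tgfb3 by -0.88 ± 0.13 and -0.76 ± 0.11, all called lower. Smad3, a signal carrier of the pathway, rose by 0.35 ± 0.10, a call lost without shRNA library 1 (edgeR adjusted p = 0.0856). Ctgf, a secreted target named after its values were seen, had 76.2, 71.7 and 64.4, 1062, 759 and 753 and 423, 367 and 471 CPM in controls, shRNA and lamin A. Among 10 fibroblast markers 3 were lower, against 13.7% over all genes: Tcf21 at -0.73 ± 0.15, Dcn at -0.36 ± 0.08 and Mfap5 at -0.37 ± 0.13. Pdgfra, a defining marker, was at 0.0088 ± 0.11 and not called. Mfap5 lost its call without any single library but lamin A library 3 (edgeR adjusted p = 0.0675 to 0.237). The summed level of the fibroblast markers was 2453 to 2719 CPM in the controls, 4201 to 4519 CPM with shRNA and 3713 to 4113 CPM with lamin A, and its part in the matrix result was not tested.

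Interferon-stimulated genes had the highest share of lower calls among the 40 lists described. Of 31 genes 30 were lower with lamin A and none higher, with a median of -0.84, and leaving out single libraries gave 27 to 30. They had been higher with shRNA than in the controls for 30 of 31 genes (median 1.56), and 23 remained above the controls with lamin A (median 0.73). Promoters of 3 members are shown because such genes are known to share an interferon-stimulated response element, searched here as GAAA, any 2 bases and GAAA again, on both strands. The motif stood within 250 bases upstream of the start in 10 of the 21 members with a promoter in the RefSeq table, and in 936 of all 27025 genes there (3.46%). The 3 members shown are those with the largest falls among called members with at least 2 matches. They are the 200 bases upstream of the start on the gene's strand, from RefSeq on GRCm38.p6, the build also called mm10, with the matches in capitals; in the Ifit1 and Ifit3 promoters the matches lie on the reverse strand, and so read TTTC, 2 bases, TTTC, and in the Isg15 promoter 3 matches overlap.
Ifit1, chr19:34640689-34640888, plus strand: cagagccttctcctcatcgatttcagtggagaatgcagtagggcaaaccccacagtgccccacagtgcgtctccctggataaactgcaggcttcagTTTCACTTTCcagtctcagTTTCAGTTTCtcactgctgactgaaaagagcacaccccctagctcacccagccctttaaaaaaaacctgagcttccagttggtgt
Ifit3, chr19:34583329-34583528, plus strand: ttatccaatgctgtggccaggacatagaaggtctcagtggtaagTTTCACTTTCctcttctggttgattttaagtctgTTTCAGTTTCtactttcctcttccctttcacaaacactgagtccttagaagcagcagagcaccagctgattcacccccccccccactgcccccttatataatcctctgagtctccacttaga
Isg15, chr4:156200819-156201018, minus strand: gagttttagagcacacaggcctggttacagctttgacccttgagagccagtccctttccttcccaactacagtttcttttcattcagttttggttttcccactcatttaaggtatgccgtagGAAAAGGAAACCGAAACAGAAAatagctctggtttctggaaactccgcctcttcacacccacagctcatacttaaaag

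Irf7, the transcription factor that amplifies type I interferon, had 21.2, 16.3 and 19.6 CPM in the controls, 95.3, 119 and 109 CPM with shRNA and 41.3, 35.9 and 48.03 CPM with lamin A. Irf7 was chosen for its small p, and no library of a group overlapped another group. The change was -1.37 ± 0.11 (edgeR adjusted p = 1.44e-07). Ifit3 and Ifit2 changed by -1.295 ± 0.13 and -1.03 ± 0.10, and Usp18, which removes ISG15 from proteins, by -1.22 ± 0.12. Ifit1 had 38.2, 61.02 and 48.2 CPM with shRNA and 19.8, 18.2 and 22.01 CPM with lamin A, a change of -1.295 ± 0.14. Isg15, the ubiquitin-like modifier itself, had 21.3, 34.5 and 28.3 CPM and 10.9, 10.3 and 13.4 CPM, a change of -1.28 ± 0.15. Irf1 was the member not called, at -0.092 ± 0.09.

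Antigen presentation had 7 of 16 genes lower and none higher, and 12 were lower with only the 6 libraries compared or only batch LA in the fit, 13 with no filter on low counts and 14 with library totals alone. B2m, the invariant chain of class I molecules, had 223, 204 and 241 CPM in the controls, 586, 699 and 638 CPM with shRNA and 396, 365 and 427 CPM with lamin A, a change of -0.695 ± 0.11 (edgeR adjusted p = 7.23e-05). The class I genes H2-K1 and H2-D1 changed by -0.69 ± 0.11 and -0.53 ± 0.09, and Psmb9, of the immunoproteasome, by -0.50 ± 0.11. H2-K1 and H2-D1 are near-identical relatives of other class I genes, so their counts are uncertain. H2-Aa, a class II gene, was at -0.50 ± 0.22 and not called, but was called lower with only batch LA in the fit (edgeR adjusted p = 0.0078) and with library totals alone (0.0161). With no filter its p was far smaller (edgeR adjusted p = 5.55e-10 against 0.0904 in the filtered fit), so the count of 13 is uncertain.

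Cytokines, chemokines and NF-kB targets had 5 of 22 genes lower and 3 higher, against 16.1% higher and 13.7% lower over all genes. Il6 had 3.75, 3.26 and 3.55 CPM with shRNA and 0.837, 1.04 and 1.08 CPM with lamin A, a change of -1.83 ± 0.26, and Vcam1, an adhesion molecule of activated vessels, changed by -0.73 ± 0.12. Ccl5 changed by -1.18 ± 0.27. Il33, an alarm cytokine, and Ccl9 rose, by 1.09 ± 0.17 and 0.55 ± 0.11. Without lamin A library 1 the count of lower genes was 3.

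Macrophage and monocyte markers had 7 of 16 genes lower and none higher, against 13.7% lower and 16.1% higher over all genes. Their summed levels were 545 to 578 CPM in the controls, 1734 to 1880 CPM with shRNA and 1531 to 1668 CPM with lamin A. Lgals3, galectin 3, had 2.48, 1.96 and 2.13 CPM in the controls, 178, 151 and 150.4 CPM with shRNA and 51.03, 44.9 and 55.9 CPM with lamin A, a change of -1.66 ± 0.14 (edgeR adjusted p = 1.69e-07). Ccr2, which marks monocytes from the blood, changed by -0.74 ± 0.17, Fcgr1 by -0.765 ± 0.12 and C1qa by -0.28 ± 0.06. Cd68 was at 0.15 ± 0.07 and Mrc1, of resident macrophages, at -0.047 ± 0.10, neither called. T and natural killer cell markers were at the edge of detection, summing to 4.08 to 4.52 CPM in the controls, 12.3 to 18.9 CPM with shRNA and 8.66 to 9.29 CPM with lamin A. Of 14 such markers 5 were lower, against 13.7% over all genes, with Nkg7 at -1.41 ± 0.35, Cd8a at -1.50 ± 0.42, Cd8b1 at -1.57 ± 0.49 and Cd3e at -1.18 ± 0.40 among them. The count was 2 without shRNA library 2, and 3 without shRNA library 3 or any single lamin A library. The part of these cell markers in the interferon and antigen presentation results was not tested.

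Targets of p53, a transcription factor that responds to DNA damage among other stresses, were lower for 13 of 21 genes and higher for 2. Their median was -0.36. Over all genes 13.7% were lower and 16.1% higher. Phlda3, a repressor of Akt signalling, had 13.6, 13.5 and 11.4 CPM in the controls, 75.7, 76.9 and 73.5 CPM with shRNA and 38.9, 34.3 and 42.8 CPM with lamin A, a change of -0.96 ± 0.08 (edgeR adjusted p = 1.69e-07). Trp53inp1 changed by -1.125 ± 0.11 and Eda2r, a receptor of the TNF family, by -1.01 ± 0.12. Ccng1 and Aen rose by 0.37 ± 0.07 and 0.22 ± 0.06, and neither rise was called with library totals alone, nor that of Aen without shRNA library 1 or lamin A library 1 (edgeR adjusted p = 0.0776 and 0.0514). Cdkn1a, the cell cycle inhibitor p21, named after its values were seen, had 32.1, 37.1 and 26.5 CPM in the controls, 182, 176 and 162 CPM with shRNA and 96.8, 88.3 and 103 CPM with lamin A.

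MAPK targets and immediate early genes had 6 of 21 lower and none higher, against 13.7% and 16.1% over all genes. Among the lower were Etv4 at -1.44 ± 0.22, Ier3 at -0.82 ± 0.20, Dusp5, a phosphatase of ERK, at -0.49 ± 0.12 and Fosb at -1.17 ± 0.32. Fos and Egr1 were at -0.20 ± 0.42 and -0.028 ± 0.46, not called. Cell cycle genes had 4 of 20 lower and none higher, against 13.7% lower over all genes. Mcm6, a part of the replicative helicase, changed by -0.76 ± 0.07, Rrm2, which makes deoxynucleotides, by -0.58 ± 0.14, Ccne2 by -0.51 ± 0.13 and Pcna by -0.18 ± 0.06, the last not called without any single library but lamin A library 2 (edgeR adjusted p = 0.0504 to 0.0869). Mki67 and Top2a, markers of dividing cells, were at -0.20 ± 0.24 and -0.15 ± 0.23, not called.

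Nrf2 targets of the oxidant response had 8 of 18 lower and 1 higher, against 13.7% lower and 16.1% higher over all genes. The count of lower genes was 5 without shRNA library 1, shRNA library 2 or lamin A library 1. Taldo1, of the pentose phosphate pathway, changed by -0.43 ± 0.06, and Gclc, which begins glutathione synthesis, by -0.54 ± 0.08. Srxn1 changed by -0.49 ± 0.10, called lower, and Gsta4, a glutathione transferase, rose by 0.61 ± 0.07. Autophagy and atrophy genes had 6 of 18 lower and 2 higher, beside the same shares over all genes. The lysosomal Ctsl, Lamp1 and Lamp2 changed by -0.64 ± 0.07, -0.31 ± 0.05 and -0.27 ± 0.05, and Trim63, the muscle ubiquitin ligase MuRF1, rose by 0.555 ± 0.07.

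Heat shock genes moved in both directions. Of 18 heat shock genes 8 were higher and 5 lower, against 16.1% and 13.7% over all genes. Their median of 0.10 turned to -0.10 with library totals alone, and 3 were lower without shRNA library 1. Hspd1 and Hspa9, chaperones of the mitochondrial matrix, rose by 0.77 ± 0.07 and 0.48 ± 0.05. Hspa1a and Hspa1b, the stress-inducible Hsp70 pair, are near-identical, so the split of their counts is uncertain. Hspa1b had 1.18, 1.14 and 1.77 CPM in the controls, 31.6, 28.3 and 28.4 CPM with shRNA and 5.20, 5.51 and 9.76 CPM with lamin A, a change of -2.10 ± 0.18, and Hspa1a changed by -1.50 ± 0.20. In the unfolded protein response, which meets misfolding in the endoplasmic reticulum, 7 of 16 genes were higher and 2 lower, with a median of 0.27. With library totals alone 2 were higher and 4 lower. Hspa5, the chaperone BiP, had 793, 796 and 807 CPM in the controls, 562, 633 and 603 CPM with shRNA and 749, 1020.3 and 798 CPM with lamin A, a rise of 0.51 ± 0.12 (edgeR adjusted p = 0.00221). Hyou1, its exchange factor, rose by 0.50 ± 0.11 and Creld2, a secreted stress protein of the reticulum, by 0.48 ± 0.11, whereas Edem1 and Dnajb9 fell, at -0.47 ± 0.06 and -0.335 ± 0.08.

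The integrated stress response, which slows translation and raises amino acid genes through ATF4, gave no common direction. Of 22 genes 5 were higher and 4 lower, against 16.1% higher and 13.7% lower over all genes, with a median of 0.05 that turned to -0.16 with library totals alone. Gdf15, a secreted stress cytokine, had 0.859, 0.718 and 1.15 CPM in the controls, 15.1, 17.05 and 18.3 CPM with shRNA and 39.9, 34.7 and 40.8 CPM with lamin A. All 3 lamin A libraries were above all shRNA ones, which were above all controls, and the rise was 1.19 ± 0.16 (edgeR adjusted p = 1.73e-05). Shmt2, a mitochondrial enzyme of folate metabolism, rose by 0.275 ± 0.05 and Vldlr, a lipoprotein receptor, by 0.31 ± 0.06. Psat1, of serine synthesis, and Nupr1, a stress regulator, fell, at -0.62 ± 0.11 and -0.79 ± 0.14. Atf4 itself was at -0.069 ± 0.09, not called. Cebpb and Chac1, called higher, and Ddit3 and Atf3, called lower, complete the 9 called genes, at 1.18 ± 0.25, 0.89 ± 0.19, -0.745 ± 0.15 and -0.54 ± 0.19. Atf3 was not called without shRNA library 1 or 2 or lamin A library 1 or 2 (edgeR adjusted p = 0.11 to 0.135). The motif TGATG, any base and AA, searched on both strands, stood within 250 bases upstream of the start in 8 of 21 members with a promoter in the table, and in 1056 of 27025 genes (3.91%).

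Gdf15 belonged to a small set that the shRNA label had raised and lamin A raised further. Their direction was called higher with shRNA in batch LC and higher again with lamin A in batch LA, and they are named as the largest of that set, after their values were seen. Il33 had 2.99, 2.16 and 1.51 CPM in the controls, 12.01, 12.1 and 12.7 CPM with shRNA and 23.7, 26.6 and 28.2 CPM with lamin A. Prg4, the lubricant lubricin, had 5.82, 5.13 and 7.75, 79.3, 60.2 and 68.999 and 101, 136 and 134 CPM in the same order, a rise of 0.83 ± 0.21. Aldh1a2 and Aldh1a3, which make retinoic acid, rose by 0.87 ± 0.19 and 0.91 ± 0.17. Cxcl14, a chemokine, rose by 1.09 ± 0.22, Ccl6 by 0.86 ± 0.11, Mmp12, the macrophage elastase, by 1.02 ± 0.33, and Nxpe5 by 0.81 ± 0.20. In the plot of these genes by library, the lamin A points are the highest in every panel. That the shRNA and lamin A libraries did not overlap was part of how these genes were chosen. For Mmp12 and Acta1 the call was lost with library totals alone. DESeq2 did not call Mmp12 (DESeq2 adjusted p = 0.185), which kept its call in edgeR without lamin A library 3 but not without any other single library (edgeR adjusted p = 0.0522 to 0.0835).

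**Figure D5:**
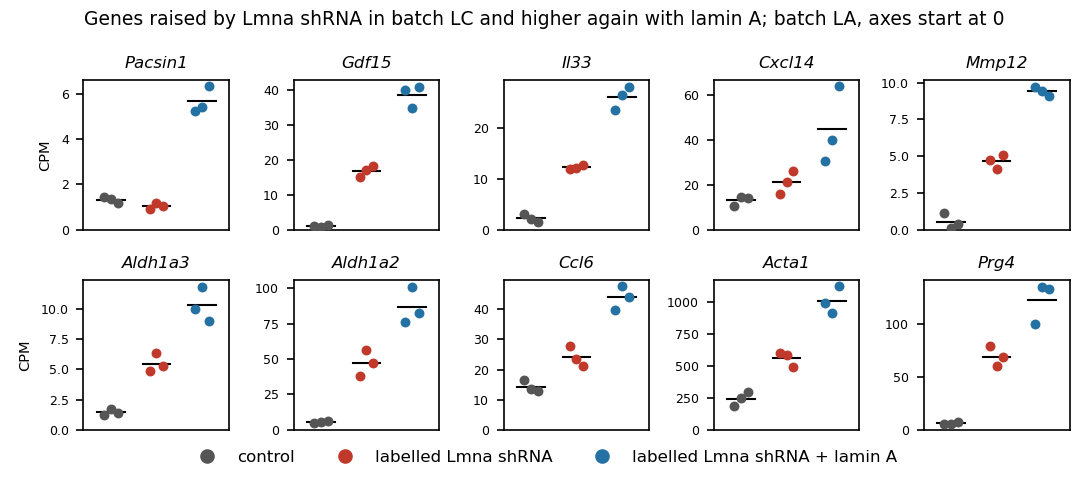
CPM in each of the 9 batch LA libraries for 10 genes higher with the shRNA label in batch LC and higher again with lamin A; points are libraries, lines group means, each axis starting at 0. In all 10 panels the 3 lamin A libraries lie above the 3 shRNA libraries, which was part of how the genes were chosen. In Pacsin1 the shRNA libraries lie no higher than the controls.

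Lamin C in batch LC is the nearest comparison, and lamin and batch cannot be told apart in it. The lamin A effect differed from the lamin C effect in 3350 genes (18.7%), being above it on the signed scale in 1769 (9.9%) and below it in 1581 (8.84%). In 2625 of these both effects had the same sign and that of lamin C was the larger, and in 24 that of lamin A was. Lmna itself was higher by 3.29 ± 0.09 with lamin C and by 2.07 ± 0.08 with lamin A, a difference of -1.21 ± 0.12 (edgeR adjusted p = 3.6e-06), and the part of this in the other differences was not tested. In 51 genes both effects were called in opposite directions, 45 of them higher with lamin A and lower with lamin C. Prg4 changed by -2.62 ± 0.23 with lamin C, Il33 by -1.40 ± 0.18 and Gdf15 by -0.69 ± 0.17, against their rises with lamin A. Tnc and Timp1 changed by -2.16 ± 0.36 and -2.775 ± 0.19 with lamin C, and the difference between the lamins was called for both (edgeR adjusted p = 0.000283 and 5.51e-07).

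Markers of the cells in the tissue moved as follows, beside 16.1% of all genes higher and 13.7% lower. Cardiomyocyte markers were higher for 10 of 12 genes and lower for none (8 and 2 with library totals alone). Their summed level was 89620 to 92060 CPM in the controls, above the values given with the respiratory chain, and each of the 12 was at 1 CPM or more in the controls. Mb, myoglobin, rose by 0.775 ± 0.07. Endothelial markers were higher for 9 of 12 genes (4 with library totals alone), with Tie1 at 0.48 ± 0.07, Cdh5, the cadherin of endothelial junctions, at 0.40 ± 0.06, Emcn at 0.405 ± 0.07 and Esam at 0.43 ± 0.08. Of 10 smooth muscle and pericyte markers 3 were higher, 3 lower and 4 not called, with a median of -0.01. Those higher were the pericyte genes Kcnj8 and Rgs5, by 0.55 ± 0.06 and 0.40 ± 0.06, and Notch3, by 0.34 ± 0.08. Pdgfrb and Cspg4, also on the list, were not among them. Cnn1 and Acta2, smooth muscle actin, fell, Acta2 at -0.49 ± 0.12. Myh11, the defining smooth muscle myosin, was at -0.0088 ± 0.15, not called. Skeletal muscle markers were lower for 5 of 7 genes, Myl1 at -1.12 ± 0.11 and Myh2 at -3.505 ± 0.48 among them, and for 3 without shRNA library 2, lamin A library 1 or lamin A library 2. Only 2 of the 7 averaged 1 CPM or more in the controls. Of 6 atrial markers 4 were lower and 1 higher, with Myl4 at -1.27 ± 0.20 and Dkk3 at -1.01 ± 0.21, and Myl7, a defining atrial light chain, at 0.637, 0.476 and 0.533 CPM with shRNA and 0.173, 0.107 and 0.171 CPM with lamin A. None of the 10 B cell, 5 neutrophil, 5 erythroid or 4 mesothelial markers tested was called. The erythroid median was 1.09, but the shRNA and lamin A libraries overlapped for each of its 5 genes. These 5 were called with no filter on low counts, a setting with far smaller p-values for some genes. For Myh7 it gave an edgeR adjusted p of 1.92e-38, against 0.0517 in the filtered fit. Fabp4, which is also on the endothelial list, was the only adipocyte marker called of 5 tested, at 0.36 ± 0.09. Cnp was the called Schwann cell marker, at -0.405 ± 0.09. Of 16 core clock genes 2 were higher, fewer than the 16.1% over all genes, Cry1 at 0.435 ± 0.15 and Hlf at 0.905 ± 0.33. Neither was called with library totals alone, Cry1 also not without shRNA library 3 or lamin A library 1 or 3 (edgeR adjusted p = 0.0506 to 0.221), and Hlf not without any single library but lamin A library 3 (0.0826 to 0.111).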

How the data were processed

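Polyadenylated RNA of the heart apex was made into directional libraries, per the labels' protocols. Counts per gene were deposited by the authors as whole numbers with no scaling, and FPKM values were deposited beside them, each a count divided by gene length and by a library size that the authors had adjusted, as the values show. Build mm10 and the tools featureCounts 1.5.0-p3, HISAT2 2.0.5, DESeq2 1.20.0 and StringTie 1.3.3b are listed per the submitters' processing notes, with no roles. The use of strand in counting is not given, so overlapping and antisense genes are uncertain.

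Samples were grouped by their labels, and no sample column was left out. Of 54532 genes, 17876 passed filterByExpr and were fitted together over 18 libraries in 6 groups (edgeR 4.0.16, TMM, glmQLFit, glmQLFTest, 12 residual degrees of freedom, R 4.3.3), with Benjamini-Hochberg adjustment over all genes tested and calls at an adjusted p under 0.05. Standard errors are the log2 fold change over the square root of F. The alternatives were DESeq2 1.42.0, other scalings and filters, limma 3.58.1 on log2(FPKM + 1) and log2(FPKM + 0.1), removal of mitochondrially encoded genes, fewer samples, a replicate block and leaving out each library. On simulated counts made for this comparison with 17433 genes tested, the share recovered was 73.1% for 1.5-fold, 89.6% for 2-fold and 100% for 4-fold changes, with 6 false calls. The simulation changed only 67, 67 and 66 genes at these folds, far fewer than were called here. All other genes had the same level in every library, and the spread followed the fitted trend with no spread of each gene's own. These rates therefore need not hold for the data.

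Named genes are Lmna, the 15 largest rises and falls among called protein-coding genes whose libraries did not overlap and whose higher group averaged 5 CPM or more, and up to 4 called members of each of 40 gene lists by smallest p (up to 3 and 2 where both directions were called). Uncalled members could be named with their values, and genes outside these rules are said to be named after their values were seen. Some genes that the rule names are not reported here. The lists hold 648 different genes, 634 of them tested. Members and lists were chosen with earlier results of these data known.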

Additional observations from a re-analysis of the deposited data

Results flagged for a closer look

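The lamin A effect in batch LA and the lamin C effect in batch LC differed in 3350 genes by edgeR's test of the difference itself. Among the named genes, 9 had both effects called and opposite, each higher with lamin A and lower with lamin C. On the log2 scale the lamin A effect minus the lamin C effect was 3.45 for Prg4, 2.77 for Nxpe5, 2.495 for Il33, 2.35 for Cxcl14, 2.35 for Aldh1a3, 2.06 for Aldh1a2, 1.89 for Gdf15, 1.18 for Creld2 and 1.18 for Ccl9. The largest of their edgeR adjusted p-values was 8.3e-05. Lamin and batch cannot be told apart in these differences.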

How the results depend on the processing

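Library totals alone, which leave the mitochondrial share in the scale, gave 1280 genes higher and 6205 lower, 151 and 922 of them at least 2-fold, 5792 genes raised by shRNA in batch LC and lower with lamin A, 1103 lowered there and higher, and 43 raised there and higher. At least 2-fold, limma on FPKM called 72 higher and 72 lower with log2(FPKM + 1), 160 and 191 with log2(FPKM + 0.1), and 68 and 72 with no filter. A filter of 1 CPM in 3 libraries, which tests fewer weak genes, gave 359 at least 2-fold lower. With no filter, 19 genes were lowered in batch LC and lower again. P-values of that setting were far below those of the filtered fit for some genes, such as Myh7. Leaving out 1 library gave 4097 to 4690 calls, 2335 to 2591 higher, 1762 to 2099 lower, 44 to 64 genes raised in batch LC and higher, and 16 to 36 lowered there and lower. Both of these ranges rest on few genes. DESeq2 called 5439 genes, 5245 of them among the 5330, RLE factors 5326 and upper quartile factors 5385, 47.7% of them higher. Removing mitochondrially encoded genes gave 57.8% higher. In none of these settings was a gene called in both but in opposite directions.

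Among the genes named, Mybpc3 turned to -0.18 with library totals alone, where Lmnb2, Gjc1, Ctnna3, Smad3, Shmt2, Vldlr, Creld2, Ccng1, Aen, Notch3, Fabp4 and Cpt1b lost their call, and where Atf4, Irf1, Tnnt2, Zmpste24 and Col1a1 were called lower. DESeq2 did not call Angptl4, Atf3 and Mmp12. The cause was not tested.

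The replicate numbers did not pair the samples: same-numbered shRNA and lamin A libraries correlated at 0.0191, 0.0174 and -6.67e-05 in their deviations from the group means. With the number as a block 5103 genes were called, 4962 of them among the 5330. Acta1 and Cd3e were not called with it (edgeR adjusted p = 0.0532 and 0.0528), Myh7 was called lower (0.0246) and Timp1 higher (0.043), and not every library correlated best with its own number. Counts under about 1 CPM, as for T cell markers, limit what can be called.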
